A study of Rattus norvegicus with 18 samples.

Results

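The ErbB family consists of Egfr, Erbb2, Erbb3 and Erbb4, and all 4 receptors were found by gene symbol among the 14506 rat genes with a probe set on the array. Each was represented by 1 probe set, and all 4 were among the 11370 genes expressed highly enough to be tested. ErbB receptors are membrane proteins that pair on binding a growth factor and then phosphorylate each other. Egfr binds Egf, Tgfa and related ligands, Erbb3 and Erbb4 bind neuregulins, Erbb2 has no known ligand of its own and serves as the preferred partner, and Erbb3 has little kinase activity and signals through its partners. The pathway runs through adaptors to the Ras-MAPK and PI3K-Akt cascades, and Egf is a growth factor for thyroid epithelium.

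The RNA came from medullary thyroid carcinomas of MENX rats. Medullary carcinoma arises from C cells, which secrete calcitonin. These animals carry a germline mutation of Cdkn1b, the gene of the cell cycle inhibitor p27, on a background labelled Sprague–Dawley white eye/Wistar–Kyoto. The 3 groups of 6 tumours were homozygous mutants aged 9 months, heterozygous mutants aged 9 months and heterozygous mutants aged 18 months, so every animal was a mutant and no wild-type thyroid was among the samples. The animals were untreated and kept free of specific pathogens, and the labels do not say whether a sample held tumour tissue alone. Values are on the log2 scale, where a difference of 1 is a doubling, and probe sets bind with different strength, so a value is compared between tumours and never between receptors. Nothing in the labels ties a sample number to a litter or a day, and p-values measure the spread between these samples.

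For orientation, the 140 bases immediately upstream of the annotated gene are shown for the receptors with an entry in the RefSeq promoter table (GRCr8). Erbb3 had no entry there, and the part of promoter sequence in the receptor values was not tested. Capitals mark matches on either strand to a GC box (GGGCGG), the binding motif of Sp factors. The windows are chr14:95378486-95378625 on the plus strand for Egfr, chr10:83907351-83907490 on the plus strand for Erbb2 and chr9:78045634-78045773 on the minus strand for Erbb4.
Egfr: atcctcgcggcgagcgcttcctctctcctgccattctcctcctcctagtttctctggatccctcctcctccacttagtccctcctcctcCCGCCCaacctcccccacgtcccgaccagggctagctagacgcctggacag
Erbb2: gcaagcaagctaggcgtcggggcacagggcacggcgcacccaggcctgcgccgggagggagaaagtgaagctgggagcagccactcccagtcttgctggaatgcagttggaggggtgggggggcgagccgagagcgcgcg
Erbb4: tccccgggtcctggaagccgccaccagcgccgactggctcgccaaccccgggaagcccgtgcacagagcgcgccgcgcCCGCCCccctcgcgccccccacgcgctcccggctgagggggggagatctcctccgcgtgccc
The windows of Egfr and Erbb4 each held 1 GC box and that of Erbb2 held 0, while 22.7% of the 24863 windows of the same length in the table held at least 1. None of these 3 windows held a TATA box (TATAAA, in 8.14% of all windows), an AP-2 motif (GCCNNNGGC, in 7.35%) or an AP-1 motif (TGANTCA, in 3.43%), each searched on both strands. GC content was 63.6% for Egfr, 70.0% for Erbb2 and 79.3% for Erbb4, against a median of 51.4% over all windows.

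Before the receptors are described, some features of the samples bear on every result. Cdkn1b ranged from 10.96 to 11.25 in homozygous tumours, from 10.67 to 10.90 in heterozygous tumours at 9 months and from 10.65 to 11.10 at 18 months. The mutation of MENX rats changes the reading frame and does not remove the gene, so these values are no check of the genotype labels. The summed level of 10 genes of thyroid follicular cells, which make thyroid hormone, was given as their mean log2 value. It ranged from 11.5 to 11.6 in heterozygous tumours at 9 months, from 10.5 to 11.6 in homozygous tumours and from 7.40 to 11.4 at 18 months. With age 9 of these 10 genes fell, as did 11 of 11 endothelial and 8 of 8 adipocyte genes, while 10 of 12 C cell genes rose. Of all genes tested 22.4% fell and 21.6% rose. Other lists were mixed or had a smaller share of their genes called. Fibroblast genes had 5 of 10 falling and 1 rising, and epithelial genes 5 of 12 falling and 4 rising. Macrophage genes had 1 of 8 falling and 3 rising, and skeletal muscle genes 1 of 9 falling. Parathyroid genes had 2 of 4 falling and 1 rising, with a median difference of -2.20, and 0 of 2 keratinocyte genes passed. Among the 18-month tumours, replicates 4 and 5 lay closest to the 9-month tumours on the first principal component, which held 63.9% of the variance, and homozygous replicate 3 lay farthest from the other 9-month tumours. In bulk tissue, fewer cells of a type and less RNA per cell cannot be told apart.

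Heterozygous tumours at 18 and 9 months were compared to ask how the receptors changed as the carcinomas aged. All 4 receptors were lower at 18 months. On average Erbb3 was 2.48-fold lower (95% interval 1.56 to 3.93), Erbb2 1.80-fold lower (1.32 to 2.46), Erbb4 1.61-fold lower (1.09 to 2.37) and Egfr 1.41-fold lower (1.21 to 1.65). All 4 passed limma's test at an adjusted p under 0.05, the threshold used throughout, although the call of Erbb4 was lost under several alternative settings. Change was widespread in this comparison, with 22.4% of the 11370 genes lower and 21.6% higher at the same threshold. The median log2 difference of the 4 receptors was -0.77, and that of all genes tested was -0.0045. All 6 older tumours lay below all 6 younger ones for Egfr and Erbb3, a pattern held by 9.00% of all genes in this direction and by 9.07% in the other.

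Erbb3 is the neuregulin receptor that recruits PI3K most directly. Its log2 values in heterozygous tumours at 9 months were 9.14, 9.05, 8.98, 9.09, 8.98 and 9.16 in replicates 1 to 6. At 18 months they were 6.39, 7.10, 7.39, 8.59, 8.57 and 8.51. The younger tumours were tightly grouped, whereas the older ones fell into 3 tumours at or below 7.39 and 3 between 8.51 and 8.59. The log2 difference was -1.31 (SE 0.32, n = 6 and 6, limma adjusted p = 0.00355).

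Erbb2, the shared partner of the family, took the values 8.84, 8.65, 8.75, 8.80, 8.62 and 8.87 at 9 months and 7.31, 7.45, 7.34, 8.74, 8.47 and 8.11 at 18 months. The same 3 older tumours, replicates 1, 2 and 3, were the lowest, and replicate 4 lay inside the younger range. The difference was -0.85 (SE 0.21, limma adjusted p = 0.0046).

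Egfr was at 7.61, 7.49, 7.39, 7.56, 7.48 and 7.28 at 9 months and at 6.80, 6.63, 6.90, 7.21, 7.09 and 7.19 at 18 months. The fall was the smallest of the family on the log2 scale but the spread was small too, and the 2 groups did not overlap. The difference was -0.50 (SE 0.11, limma adjusted p = 0.00181).

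Erbb4, the neuregulin receptor with a full kinase, was at 7.60, 7.67, 7.50, 7.59, 7.89 and 7.77 at 9 months. At 18 months it was at 5.91, 6.53, 6.75, 7.49, 7.91 and 7.32. Replicate 5 of the older group was above every younger tumour, and replicate 1 was the lowest of all 18. The difference was -0.69 (SE 0.27, limma adjusted p = 0.0447). The call was lost when any of 12 of the 18 tumours was left out, and without 18-month replicate 1 the difference was -0.47 (limma adjusted p = 0.109).

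**Figure D1:**
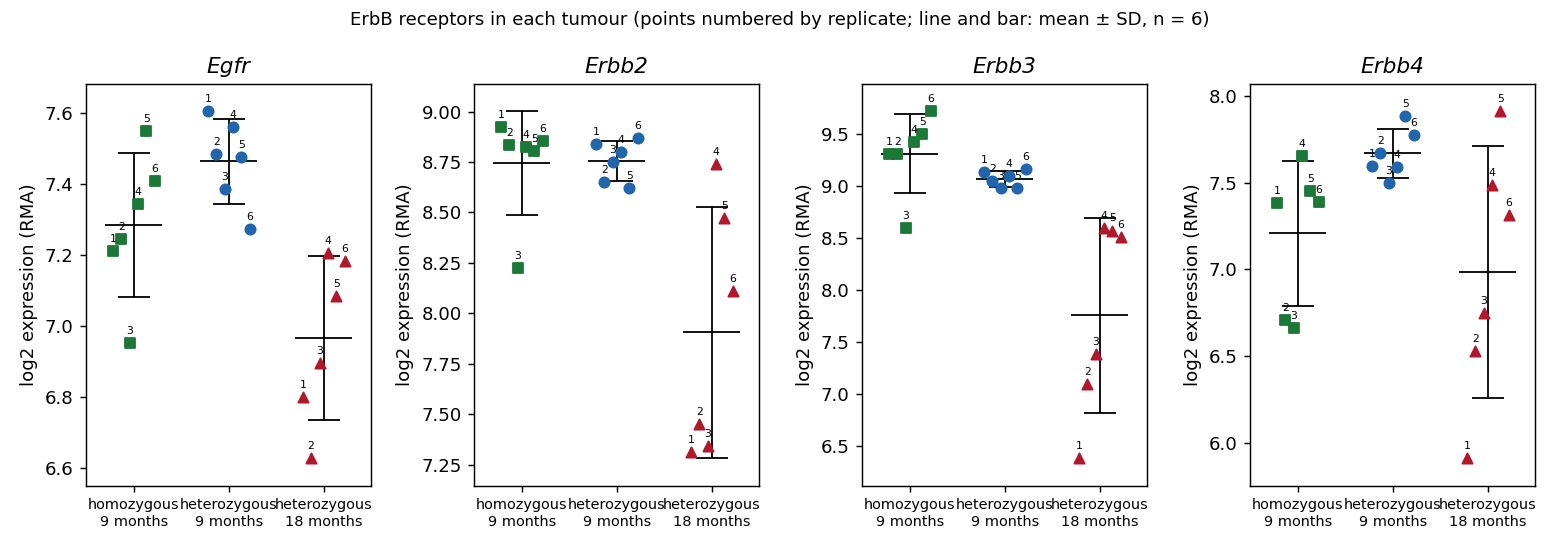
Log2 expression of Egfr, Erbb2, Erbb3 and Erbb4 in each of the 18 tumours, numbered by replicate, with the mean and SD of each group of 6. The 18-month tumours spread widely, with replicates 1, 2 and 3 lowest for every receptor, and homozygous replicate 3 is the lowest of its group in all 4 panels.

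The spread was wider at 18 months, a difference that was not tested. The SD of Erbb3 was 0.076 at 9 months and 0.94 at 18 months in heterozygous animals, and that of Erbb2 was 0.10 and 0.62. The corresponding SDs were 0.14 and 0.73 for Erbb4 and 0.12 and 0.23 for Egfr. Leaving out 18-month replicates 4 and 5, an alternative chosen because an earlier analysis had seen them lie near the young tumours, gave differences of -0.59 for Egfr, -1.20 for Erbb2, -1.72 for Erbb3 and -1.05 for Erbb4. Larger differences follow from that choice, since these tumours were picked for lying near the young ones, and they add no support to the calls.

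The order of the 18-month tumours by receptor level resembled their order by follicular cell genes and also by endothelial genes. Replicates 4 and 5 had follicular means of 11.4 and 11.1. Replicates 2, 3 and 6 had 9.55, 9.26 and 9.67, and replicate 1 had 7.40. Replicate 1 was lowest for Erbb2, Erbb3 and Erbb4, and replicate 4 was highest for Egfr, Erbb2 and Erbb3. Endothelial means at 18 months were 8.24, 8.60, 8.77, 9.89, 9.69 and 8.99 in replicates 1 to 6, and Erbb3 ranked these tumours in the same order. The first principal component of all genes tested also placed them in this order. Epithelial means were 9.64, 9.78, 9.72, 10.34, 10.37 and 10.18, so a similar order was not limited to follicular and endothelial genes. In heterozygous tumours at 9 months endothelial means ran from 9.93 to 10.1. C cell means ran from 11.4 to 12.5 at 18 months and from 10.6 to 11.2 in heterozygous tumours at 9 months. Among defining follicular genes, Tg, the precursor of thyroid hormone, was the one that did not pass the test of age (difference -0.73, limma adjusted p = 0.136). Genes of Schwann cells and glia, which depend on Erbb3, had 1 of 6 tested falling and 0 rising, which for falls is near the 22.4% of all genes. The part of the non-tumour cell types in the fall of the receptors was not tested.

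**Figure D2:**
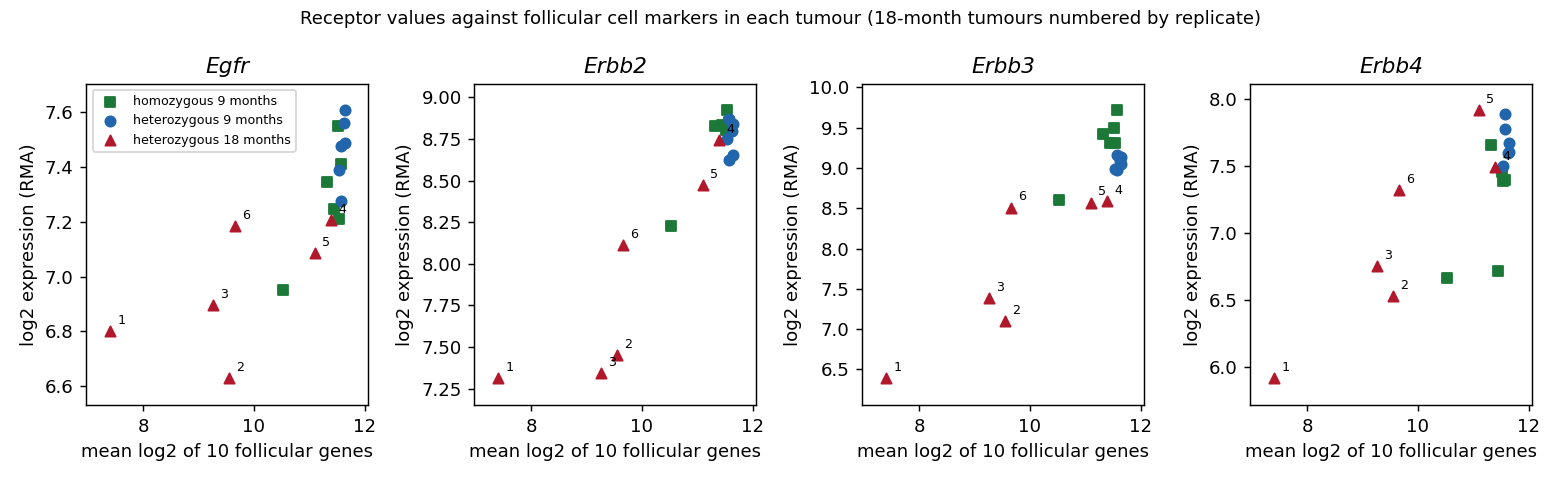
Log2 expression of each receptor against the mean log2 value of 10 follicular cell genes in the same tumour, with the 18-month tumours numbered by replicate. The 9-month tumours crowd at follicular means of 11.3 to 11.6 except homozygous replicate 3 at 10.5, and 18-month replicate 1 lies alone at 7.40.

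Homozygous and heterozygous tumours of the same age were compared to ask whether loss of the second functional copy of Cdkn1b changed the receptors. None of the 4 receptors was called, and none of the 11370 genes was called either (0%, with 995 at an unadjusted p under 0.05). The differences, homozygous minus heterozygous, were -0.18 for Egfr (95% interval -0.41 to 0.05), -0.01 for Erbb2 (-0.46 to 0.44), 0.24 for Erbb3 (-0.43 to 0.90) and -0.46 for Erbb4 (-1.02 to 0.10). The limma adjusted p-values were 0.629, 0.989, 0.828 and 0.614, which leaves shifts within these intervals undecided. The SEs of this model pool all 3 groups, including the wide spread of the 18-month tumours. With only the 2 groups compared, the SEs of Erbb3 and Erbb4 were 0.14 and 0.16, and limma's adjusted p-values of 0.435 and 0.246 did not pass either. The groups overlapped for every receptor. Of all genes 0.651% lay wholly higher and 0.915% wholly lower in the homozygous tumours.

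The homozygous values were 7.21, 7.25, 6.95, 7.34, 7.55 and 7.41 for Egfr and 8.92, 8.84, 8.22, 8.83, 8.80 and 8.85 for Erbb2. For Erbb3 they were 9.30, 9.30, 8.60, 9.42, 9.49 and 9.71, and for Erbb4 they were 7.38, 6.71, 6.66, 7.65, 7.45 and 7.39. Replicate 3 was the lowest of its group for all 4 receptors, and its follicular mean of 10.5 was also the lowest. The other 5 homozygous tumours were above all 6 heterozygous ones for Erbb3, and 4 of those 5 were below all of them for Erbb4. These counts set aside the tumour that was lowest, and the share of all genes with such a pattern was not computed. No separation by genotype is read from them. Without replicate 3 the Erbb3 difference was 0.38 and the Erbb4 difference -0.35, with limma adjusted p-values of 0.942 and 0.938.

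The homozygous tumours at 9 months and the heterozygous tumours at 18 months differ in both genotype and age, and this comparison shares a group with each of the other 2. Erbb3 was higher in the homozygous tumours by 1.55 (SE 0.32, limma adjusted p = 0.00591), Erbb2 by 0.84 (SE 0.21, limma adjusted p = 0.0121) and Egfr by 0.32 (SE 0.11, limma adjusted p = 0.0339). Erbb4 differed by 0.22 (95% interval -0.33 to 0.78), which did not pass. Of all genes 16.2% were called higher and 13.6% lower. Erbb3 was the receptor whose groups did not overlap, against 1.26% of genes wholly higher and 0.994% wholly lower. The Egfr call was lost when any of 7 tumours was left out, the lowest value being 0.25 without 18-month replicate 2. These 3 calls come from the fit of all 18 arrays. With only the 2 groups compared, Erbb3 was still called (limma adjusted p = 0.0452), whereas Erbb2 (0.0561) and Egfr (0.0864) were not. In the exact permutation test over all genes no receptor was called, with adjusted p-values of 0.0919 for Erbb3, 0.1 for Erbb2 and 0.114 for Egfr, and neither was any other gene.

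**Figure D3:**
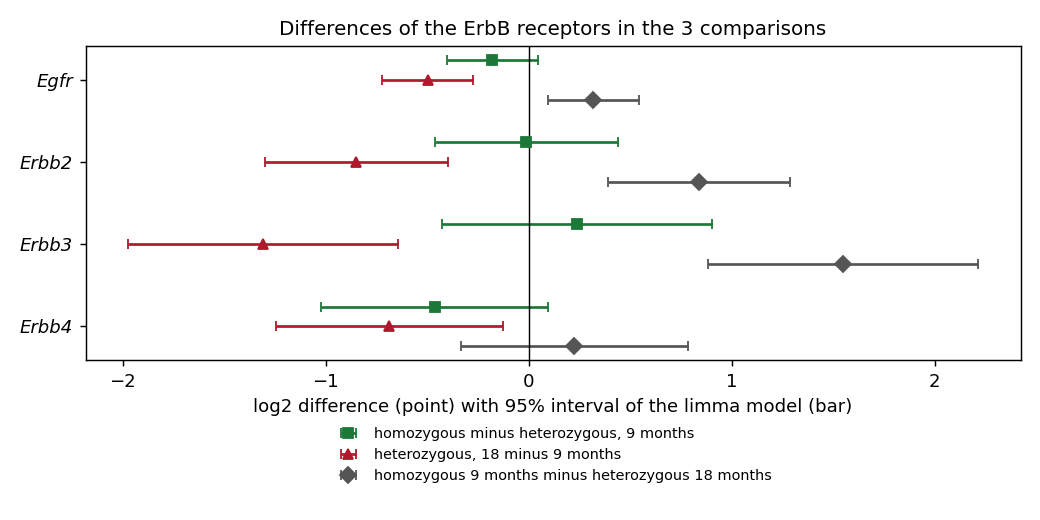
Log2 differences of the 4 receptors in the 3 comparisons with the 95% intervals of the limma model. The genotype intervals at 9 months all include 0, the 4 age intervals lie below 0, and the interval of Erbb4 crosses 0 in the third comparison.

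Whether the receptors changed by different amounts was tested on the difference of 2 receptors within each array, which removes a constant offset between probe sets from a contrast between groups. It does not remove a compression of differences at low signal. Egfr and Erbb4, with means of 7.24 and 7.29 over all tumours, lie below the array medians of 7.55 to 7.65, and Erbb4 reaches 5.91, so a smaller log2 change of these probe sets is not shown to be a smaller change of the RNA. There were 6 pairs in 3 comparisons, 18 tests in all, each an exact two-sided permutation test over all assignments of 12 tumours to 2 groups of 6, with a smallest possible p of 0.00216, adjusted over the 18. The same share over other pairs of genes was not computed, so nothing here is shown to be particular to these receptors.

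The balance of Erbb3 and Erbb4, the 2 neuregulin receptors, differed between all 3 groups. Erbb3 minus Erbb4 was 1.92, 2.60, 1.94, 1.77, 2.04 and 2.33 in homozygous tumours, and 1.54, 1.38, 1.48, 1.50, 1.10 and 1.39 in heterozygous tumours of the same age. At 18 months it was 0.48, 0.57, 0.64, 1.11, 0.66 and 1.19. Every homozygous tumour, replicate 3 included, was above every heterozygous one. Homozygous tumours had the balance shifted toward Erbb3 by 0.70 against heterozygous tumours of 9 months (exact permutation p = 0.00216, adjusted 0.00974). With age it shifted away from Erbb3 by -0.62 (exact permutation p = 0.00649, adjusted 0.0146). Homozygous and 18-month tumours differed by 1.32 (exact permutation p = 0.00216, adjusted 0.00974). All 3 tests passed when any 1 tumour was left out, with shifts from 0.60 to 0.77 for genotype and from -0.71 to -0.56 for age.

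Erbb3 also shifted relative to the other receptors. In homozygous tumours Egfr minus Erbb3 was lower by -0.42 (exact permutation p = 0.00433, adjusted 0.0146) and Erbb2 minus Erbb3 by -0.25 (exact permutation p = 0.00649, adjusted 0.0146), so that Erbb3 stood higher relative to both. Erbb2 minus Erbb4 was higher by 0.45 (exact permutation p = 0.00866, adjusted 0.0173). With age, the log2 value of Erbb3 fell more than that of Egfr by 0.81 (exact permutation p = 0.00216, adjusted 0.00974) and more than Erbb2 by 0.46 (exact permutation p = 0.0152, adjusted 0.0248). The age call against Erbb2 was lost when any 1 of the 6 heterozygous 9-month tumours was left out, and that against Egfr without replicate 2, 3 or 6 of them. The age changes of Egfr and Erbb2 differed by 0.35 (exact permutation p = 0.104, adjusted 0.134), those of Egfr and Erbb4 by 0.19 (adjusted 0.532) and those of Erbb2 and Erbb4 by -0.16 (adjusted 0.37), and these tests did not pass. Between homozygous and 18-month tumours, Egfr minus Erbb2 differed by -0.52 (exact permutation p = 0.0303, adjusted 0.0455), a call lost when any of 11 tumours was left out.

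**Figure D4:**
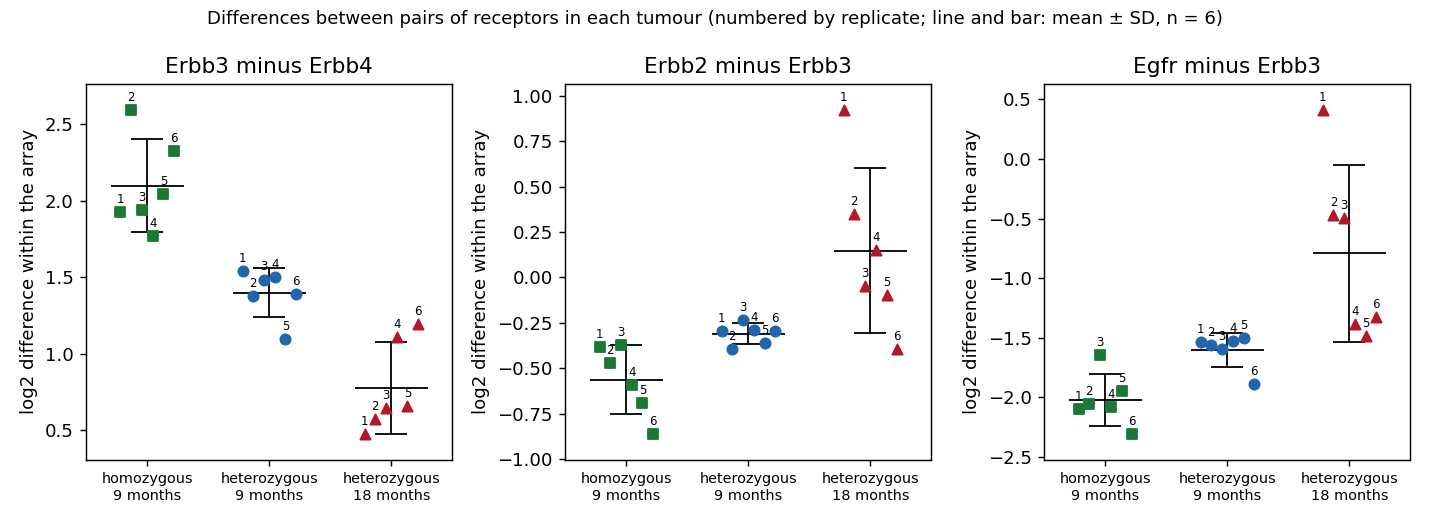
Within-array log2 differences of 3 pairs of receptors in each tumour, numbered by replicate, with the mean and SD of each group of 6. For Erbb3 minus Erbb4 the 6 homozygous tumours lie between 1.77 and 2.60, above all heterozygous tumours of the same age at 1.10 to 1.54.

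Receptor levels were also related to each other from tumour to tumour, after subtracting each group's mean. Over the 18 tumours all 6 pairs were positively related, with Pearson's r from 0.665 to 0.899 and Spearman's rho from 0.556 to 0.888. The pair of Erbb2 and Erbb3 had r = 0.899 (permutation p = 0.00206, adjusted over 6 pairs 0.00568) and rho = 0.888 (permutation p = 0.00105, adjusted 0.0036). It had r = 0.893 without the 2 tumours farthest from the median. Over the 12 tumours of 9 months alone, 0 of the 6 pairs passed. There Erbb2 and Erbb3 had r = 0.869 (permutation p = 0.0293, adjusted 0.091) and rho = 0.641 (permutation p = 0.0322, adjusted 0.0966). That r was 0.346 without homozygous replicate 3 and heterozygous replicate 5. Without the 2 tumours farthest from the median, r at 9 months ran from -0.106 to 0.412 over the 6 pairs. Within the 6 heterozygous tumours of 9 months, Erbb2 and Erbb3 had r = 0.822 and rho = 0.943. Every other pair there had a negative r, from -0.366 to -0.00835. Over the pairs, r ran from 0.634 to 0.892 in homozygous tumours and from 0.779 to 0.966 at 18 months. What the relations rest on was not tested.

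The genes whose deviations from the group means were most like those of each receptor were listed as a description. Follicular and endothelial means, like the receptors, spread most widely among the 18-month tumours, and what the likeness rests on was not tested. For Erbb2 the most alike genes were Smad3, a transducer of TGF-beta signals (r = 0.985), Gadd45a, a stress and growth arrest gene (0.983), and Myo1e, an unconventional myosin (0.977). For Erbb3 they were Lcp1, an actin-bundling protein (0.977), Tmem45b (0.976) and Il10rb, a cytokine receptor subunit (0.970). For Erbb4 they were Zc2hc1a (0.952), Cd48, a leukocyte surface protein (0.933), and Serpinb6a, a protease inhibitor (0.926). For Egfr they were Mpzl3 (0.917), C1qtnf1 (0.906) and Kcnk6, a potassium channel (0.892). All 12 were lower at 18 months, by between -0.24 (Mpzl3, limma adjusted p = 0.022) and -1.66 (Tmem45b, limma adjusted p = 0.00246). Of all genes 22.4% were called lower. The 12 were picked for likeness to receptors that fell, over tumours that include the widely spread 18-month group. A common fall can follow from that choice and adds no support to the calls. The call of C1qtnf1 (difference -0.39, limma adjusted p = 0.0419) was lost when any of 8 tumours was left out, and that of Mpzl3 without 18-month replicate 2 (limma adjusted p = 0.0583).

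Of 7 ligands of Egfr, 6 had a probe set and 5 were tested, with Ereg below the expression minimum. Epgn, Nrg3 and Nrg4 were not found by name in the platform annotation. With age 1 of the 5 fell, 0 rose and 4 did not pass, and among the neuregulins 0 of 2 passed. The 1 fall of 5 is near the 22.4% of all genes that fell, and 21.6% rose. Tgfa, a ligand that cells often make for themselves, was at 8.70, 8.56, 8.62, 8.65, 8.69 and 8.64 in heterozygous tumours at 9 months and at 7.11, 7.53, 7.41, 8.49, 8.58 and 7.87 at 18 months. As with the receptors, replicates 1, 2 and 3 were lowest. For Tgfa 1 older tumour, replicate 5, reached the younger range. Tgfa fell by 0.81 on the log2 scale (SE 0.20, limma adjusted p = 0.0044).

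Egf itself was far more variable. It was at 8.27, 9.81, 9.85, 10.70, 10.10 and 10.36 at 9 months and at 8.06, 7.77, 7.98, 10.94, 8.43 and 8.14 at 18 months in heterozygous animals, a difference of -1.30 (SE 0.54, limma adjusted p = 0.0606). In homozygous tumours it was at 10.06, 8.38, 9.12, 8.64, 10.93 and 9.41. Gcm2, the transcription factor that defines parathyroid cells, varied between tumours as well, from 5.89 to 11.34 in homozygous tumours, from 6.29 to 11.25 in heterozygous tumours at 9 months and from 5.85 to 11.17 at 18 months. In both 9-month groups the same tumours were lowest and highest for Egf and Gcm2, and at 18 months replicate 4 was highest for both. The part of parathyroid tissue in the Egf values was not tested. Without 18-month replicate 4 the Egf difference was -1.77 and passed (limma adjusted p = 0.00276), and it also passed without heterozygous 9-month replicate 1 (-1.61, limma adjusted p = 0.0222).

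The remaining ligands differed less with age than Tgfa and Egf. Areg differed by -0.07, Btc by -0.13 and Hbegf by 0.20, and none of these passed. Nrg1, a neuregulin that binds Erbb3 and Erbb4, differed by 0.20 (SE 0.14, limma adjusted p = 0.24), and Nrg2 by -0.30 (SE 0.13, limma adjusted p = 0.0706). Nrg1 was at 8.67, 8.76 and 8.64 in 18-month replicates 1, 2 and 3, above all heterozygous tumours of 9 months, whose highest was 8.39. In homozygous tumours it was at 8.49, 8.66, 8.05, 8.61, 8.60 and 8.44, so values as high or nearly as high occurred there too. Without 18-month replicate 4 the Nrg1 difference was 0.31 and passed (limma adjusted p = 0.0397). Nrg2 passed with only the 2 groups compared (-0.30, limma adjusted p = 0.0462). It also passed without heterozygous 9-month replicate 1 (-0.35, limma adjusted p = 0.0495) or homozygous replicate 6 (-0.30, limma adjusted p = 0.0338). In homozygous against 18-month tumours, Tgfa was higher by 0.83 (limma adjusted p = 0.0106) and Nrg2 by 0.53 (limma adjusted p = 0.0113). None of the ligands was called between genotypes.

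Membrane-bound ligands are released by the protease Adam17 with its carriers, the iRhoms. Of 4 tested genes of ligand release 2 fell with age, 0 rose and 2 did not pass, where 22.4% of all genes fell. Adam17 fell by 0.77 on the log2 scale (SE 0.17, limma adjusted p = 0.00205), with all older tumours below all younger ones, and Rhbdf1, one of the iRhoms, fell by 0.98 (SE 0.24, limma adjusted p = 0.00442).

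Among 10 tested genes that inhibit the receptors or direct their degradation, 5 fell, 2 rose and 3 did not pass. For all genes the shares were 22.4% falling and 21.6% rising, so the 2 rises are near that share. The ubiquitin ligases Cblc and Rnf41, of which Rnf41 targets Erbb3, fell by 1.27 (limma adjusted p = 0.00121) and by 0.43 (limma adjusted p = 0.000549) on the log2 scale. Sh3kbp1, an adaptor in receptor endocytosis, fell by 0.66 (limma adjusted p = 0.000732). Stub1, a chaperone-linked ubiquitin ligase that acts on Erbb2, rose by 0.25 (limma adjusted p = 0.00193). Errfi1, a feedback inhibitor of the kinase domain, differed by -0.02 (limma adjusted p = 0.89); it was outside the rule for naming genes and was chosen after its value was seen.

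Of 8 tested partners and chaperones, 4 fell, 1 rose and 3 did not pass, against 22.4% of all genes falling and 21.6% rising. Cd44, a membrane glycoprotein that associates with ErbB receptors, fell by 1.54 (limma adjusted p = 0.000962). Cav1 of the caveolae fell by 0.75 (limma adjusted p = 0.00341), the scaffold Nherf1 by 0.71 (limma adjusted p = 0.00756) and the mucin Muc1 by 1.40 (limma adjusted p = 0.0104). The member that rose was the chaperone gene Hsp90aa1, by 0.41 (limma adjusted p = 0.0241), named as the 1 rise after its value was seen.

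Below the receptors, genes moved in both directions. Of 24 tested adaptors and kinases 10 rose, 5 fell and 9 did not pass, with a median difference of 0.14, where 21.6% of all genes rose and 22.4% fell. The PI3K regulatory subunit Pik3r1 fell by 0.91 (limma adjusted p = 0.000744), whereas its relative Pik3r2 rose by 0.35 (limma adjusted p = 0.000774). The kinase Braf rose by 0.52 (limma adjusted p = 0.00123), and Nras fell by 0.36 (limma adjusted p = 0.00162).

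Genes whose transcription is widely used as a readout of MAPK activity all passed the test. At 18 months 6 of 9 were higher and 3 of 9 lower, with a median difference of 0.72. Of all genes 21.6% were called higher and 22.4% lower, and MAPK activity itself was not tested. The transcription factor gene Etv5 rose by 1.11 (SE 0.28, limma adjusted p = 0.00486) and the feedback inhibitor Spry4 by 0.57 (SE 0.13, limma adjusted p = 0.00234). In the other direction, Phlda1 fell by 0.78 (SE 0.17, limma adjusted p = 0.0022) and Spry2 by 0.55 (SE 0.13, limma adjusted p = 0.00264). The other members that rose were Dusp4, Dusp6, Ccnd1 and Etv4, and Epha2 fell. In homozygous tumours against 18-month tumours 2 of the 9 were higher and 6 lower, against 16.2% and 13.6% of all genes. Between genotypes at 9 months 0 members of these pathway lists were called.

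**Figure D5:**
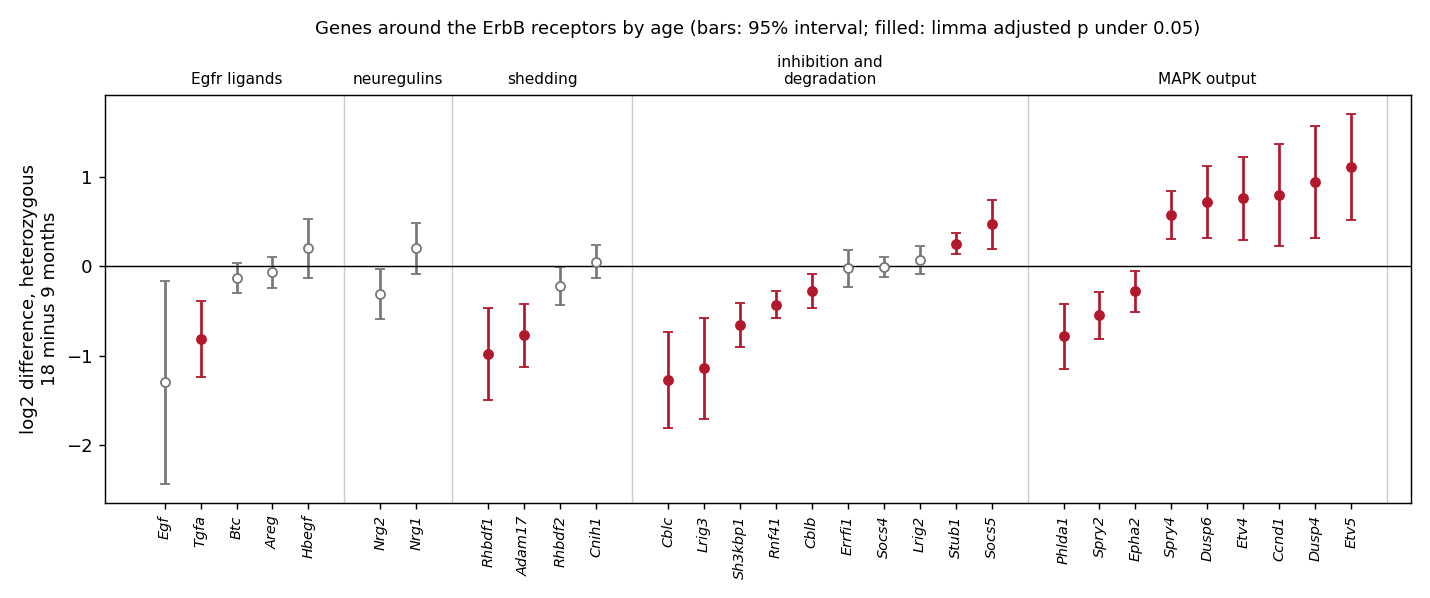
Log2 differences, 18 minus 9 months in heterozygous tumours, of tested ligands, release factors, inhibitors and MAPK output genes, with 95% intervals, where filled points passed the limma test. Tgfa is the ligand that passed, and 6 of the 9 output genes lie above 0.

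Erbb2 lies in a cluster of genes on rat chromosome 10, and 6 genes of that region were tested. With age 2 fell, 1 rose and 3 did not pass, which is near the shares of all genes, 22.4% lower and 21.6% higher. Stard3, a cholesterol transporter, fell by 0.44 (limma adjusted p = 0.00171) and Mien1, the next gene after Erbb2 in GRCr8, by 0.21 (limma adjusted p = 0.00794). Grb7, an adaptor that binds Erbb2, rose by 0.23 (limma adjusted p = 0.00515). Ikzf3, Med1 and Cdk12 differed by 0.01, 0.01 and -0.06, outside the naming rule. The change of Erbb2, -0.85, was the largest of the 7 genes on the log2 scale.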

How the data were processed

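The authors deposited 1 table of log2 expression values. The tools named in the submitters' processing notes are Affymetrix Expression Console 1.3.0.187 and RMA. Per the labels' protocols, RNA was treated with DNase, and whole-transcript amplification preceded biotin labelling. Of 29214 probe sets 15310 had 1 gene symbol in the platform annotation, 323 had several and 13581 had none. The probe set with the highest mean represented each gene, and a gene was tested if this mean was at least 6.32, the 30th percentile over probe sets. Arrays carry no read depth, and their number limits the precision. Array medians lay between 7.55 and 7.65.

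All 18 arrays entered 1 linear model with a mean per group, in limma 3.58.1 and R 4.3.3, with two-sided tests and Benjamini-Hochberg adjustment over 11370 genes. All standard errors and adjusted p-values of single genes are limma's. The procedure was tested on simulated data. The 20 gene lists held 202 entries, 170 of them measured. The members, the lists and the alternatives were chosen with earlier results of these data known, so their counts are descriptions. Named genes are the receptors and ligands, up to 4 changed members of each other pathway list with the smallest p, the 3 genes most like each receptor and up to 4 markers of each cell type.

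Same-numbered tumours of different groups deviated together in 7 of 18 pairs of groups and numbers (r over 0.1, range -0.288 to 0.353), so the numbers were not taken as pairs. Promoter windows end 1 base before the outermost annotated base of the gene. Other fits are described in the closing section.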

Additional observations from a re-analysis of the deposited data

Results flagged for a closer look

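Among the receptors and ligands, 33 groups of 6 tumours were examined for a single tumour far from the others, and 5 were found, where chance marks about 1 group in 20. Homozygous replicate 3 was low for Erbb2 at 8.225, with the next tumour at 8.802, for Erbb3 at 8.597, with the next at 9.305, and for Nrg1 at 8.047, with the next at 8.437. Egf was low in heterozygous 9-month replicate 1 at 8.271, with the next at 9.811, and high in 18-month replicate 4 at 10.937, with the next at 8.425. Of these Egf tumours, the first also had the lowest Gcm2 value of its group, 6.285, and the second the highest of its group, 11.167.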

How the results depend on the processing

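The age differences of the receptors kept their direction under every alternative run, from -0.59 to -0.43 for Egfr, -1.20 to -0.73 for Erbb2, -1.72 to -1.03 for Erbb3 and -1.05 to -0.47 for Erbb4. Egfr, Erbb2 and Erbb3 kept their age calls wherever they were tested. Egfr and Erbb4 were not tested with the filter at the 50th percentile, which left 2 receptors called. The Erbb4 age difference of -0.687 was not called with no filter (limma adjusted p = 0.0535), with only the 2 groups compared (limma adjusted p = 0.0639) or in the exact permutation test (adjusted p = 0.097), and it ranged from -0.872 to -0.472 when 1 tumour was left out. In the third comparison, of homozygous with 18-month tumours, 3 receptors were called, but 1 with only the 2 groups compared and 0 in the permutation test, which called 0 of all genes. There Egfr (0.318) was not called with only the 2 groups (limma adjusted p = 0.0864) or by permutation (adjusted p = 0.114) and ranged from 0.251 to 0.385 without 1 tumour. Erbb2 (0.839) was not called with the 2 groups (limma adjusted p = 0.0561) or by permutation (adjusted p = 0.1), nor Erbb3 (1.549) by permutation (adjusted p = 0.0919), and Erbb4 reached 0.583 and was called (limma adjusted p = 0.0499) without 18-month replicates 4 and 5. The permutation test was added after seeing the data, with adjustment over all genes tested; the planned version adjusted over the receptors alone was not run. Of the 6 relations between receptors, 0 passed in the 12 tumours of 9 months. The genotype difference of Erbb2 turned from -0.01 to 0.073 with array weights and ranged from -0.047 to 0.092 without 1 tumour. Small differences of ligands that did not pass also turned sign. That of Areg in the third comparison was 0.004 with array weights, 0.043 without replicates 4 and 5 and -0.06 to 0.031 without 1 tumour. That of Hbegf between genotypes was 0.031 with array weights and -0.087 to 0.056 without 1 tumour. Nrg1 in the third comparison was -0.118 without replicates 4 and 5 and -0.061 to 0.128 without 1 tumour, and Tgfa between genotypes was -0.002 after a further quantile normalization and -0.018 to 0.110 without 1 tumour.

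With the replicate number as a block, the replicate block fit called 4 receptors with age, 3 in the third comparison and 0 between genotypes, with an Erbb4 age difference of -0.687 (limma adjusted p = 0.0216), and changed no call of a receptor. Over all genes, 3392 calls of the third comparison became 708 with only the 2 groups, 2116 without 18-month replicate 2 and 5393 without replicates 4 and 5, and the 0 genotype calls became 24 with only the 2 groups and 118 with array weights. The cause of these changes was not tested.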
